A study of Mus musculus with 12 samples.

Results

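The presynaptic active zone scaffold genes are 10 genes whose proteins build the release site of the synapse. They are Rims1 and Rims2 (the RIMs), Unc13a, Unc13b and Unc13c (the Munc13 proteins), Bsn and Pclo (Bassoon and Piccolo), Erc1 and Erc2 (the ELKS proteins) and Rimbp2 (RIM-binding protein). They were found by symbol in the count matrices of the cortex of P21 mice, where all 10 were among the 55336 features. Their levels are described across classes of nuclei defined by marker genes, and in MYT1L Het against WT animals.

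At the active zone, RIMs hold docked vesicles and calcium channels together, and they bind the vesicle protein Rab3 and recruit Munc13. Munc13 proteins prime vesicles for fusion, RIM-binding proteins link RIMs to calcium channels, ELKS proteins bind RIMs and Bassoon, and Bassoon and Piccolo are very large proteins that gather vesicles around the site. Members of one family can stand in for each other in part, and synapses of different neurons are known to use them in different proportions.

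The animals were C57BL/6-Myt1l em1Jdd/J mice of either sex, 6 WT and 6 heterozygous (Het) for a frameshift (S710fsX) in Myt1l, a transcription factor of neurons, with 3 males and 3 females of each genotype. All 12 had received AAV9 by injection into the brain as pups, carrying the hyPB transposase and an H2b-tdT reporter transposon, so no group was free of virus, and the tissue was taken at 21 days of age, after perfusion. The labels call the tissue cortex, the methods call it cortex in some places and prefrontal cortex in another, and nuclei with markers of striatal projection neurons and of the dentate gyrus were present. Myt1l itself was at 975 ± 75.7 CPM (SD, n = 6; CPM is a gene's UMIs in a sum of nuclei, scaled to a fixed total) in excitatory nuclei of WT and 1099 ± 59.2 in those of Het animals, but the frameshift is not separated in these counts, so its level does not check the genotype. The methods draw the P21 animals from several litters, but the labels do not say which animals were littermates. The tests therefore do not include the litter, and p-values below set a difference against the spread between these animals.

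Of 78743 barcodes, none shared between animals, 34860 passed the filters, with 1633 to 4646 nuclei per animal and a median of 3001 to 3414.5 unique molecular identifiers (UMIs) per nucleus. Clustering without the 10 genes and naming from marker genes gave 5 excitatory, 5 inhibitory and 4 non-neuronal classes, written with the ending -like. L6 CT-like (3811 nuclei), L4/5 IT-like (2966) and L2/3 IT-like (1741) nuclei were the most frequent excitatory classes, with L5 NP-like (565) and DG-like (817) nuclei beside them. The inhibitory classes were Striatal-projection-like (1574), Pvalb-like (1386), Sst-like (1118), Vip-like (414) and Lamp5-like (412) nuclei. The non-neuronal classes were Oligodendrocyte-like (1354), OPC-like (576), Astrocyte-like (174) and Microglia-like (125) nuclei. Clusters that met no naming criterion held 17663 nuclei (50.7% of those kept). Of these, 11728 fell in the excitatory, 4057 in the inhibitory and 1878 in the non-neuronal group set by the first round of clustering. The 1878 enter no sum of a class or broad group, and the others only that of their broad group. The first-round group does not settle the cell type. In the non-neuronal group, an unnamed cluster of 128 nuclei led by Reln and Zfp385b had 5635 CPM of Erc2 (mean, n = 5), above every named class. The sums called all excitatory and all inhibitory nuclei hold the 20515 of 21694 and 7771 of 9022 nuclei that carried at least 1 marker UMI of that group and were not mixed. The orders of classes below are among the named classes alone. In 10 of the 14 classes every marker used for its name, or all but 1, was higher than in the other classes of all kinds. The exceptions were L2/3 IT-like (2 of 6 markers), L4/5 IT-like (1 of 6), DG-like (4 of 6) and Pvalb-like (4 of 6) nuclei, and within their own broad group these had 5, 6, 6 and 4 of 6 markers at their highest.

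Together the 10 genes took 4607 ± 373 CPM (SD, n = 12 animals) in Vip-like nuclei, the lowest of the neuronal classes, and 9365 ± 481 in L4/5 IT-like nuclei, the highest. They took 7164 ± 222 CPM of all excitatory and 6107 ± 497 of all inhibitory nuclei. In non-neuronal classes the sum was 3245 ± 357 in OPC-like (n = 11), 1574 ± 340 in Astrocyte-like (n = 8), 856 ± 103 in Oligodendrocyte-like (n = 12) and 729 ± 220 CPM in Microglia-like nuclei (n = 6). Since nuclear UMIs also come from introns, levels of different genes are compared only per 100 kb of gene. On that scale Rims1 led in excitatory nuclei (377 CPM per 100 kb), followed by Unc13a (320), Erc2 (262), Bsn (232), Rims2 (209), Pclo (199), Rimbp2 (184), Erc1 (103), Unc13b (91.2) and Unc13c (9.25). In inhibitory nuclei the order began with Rims1 (322), Rims2 (288), Unc13a (276) and Pclo (213). These orders rest on the scaling by length, which favours Unc13a, the shortest gene (47.3 kb), most and Erc2, the longest (856 kb), least. Whether UMIs rise in proportion to length was not tested. The limit given below for Unc13a and Colgalt1 also holds for the place of Unc13a.

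**Figure D1:**
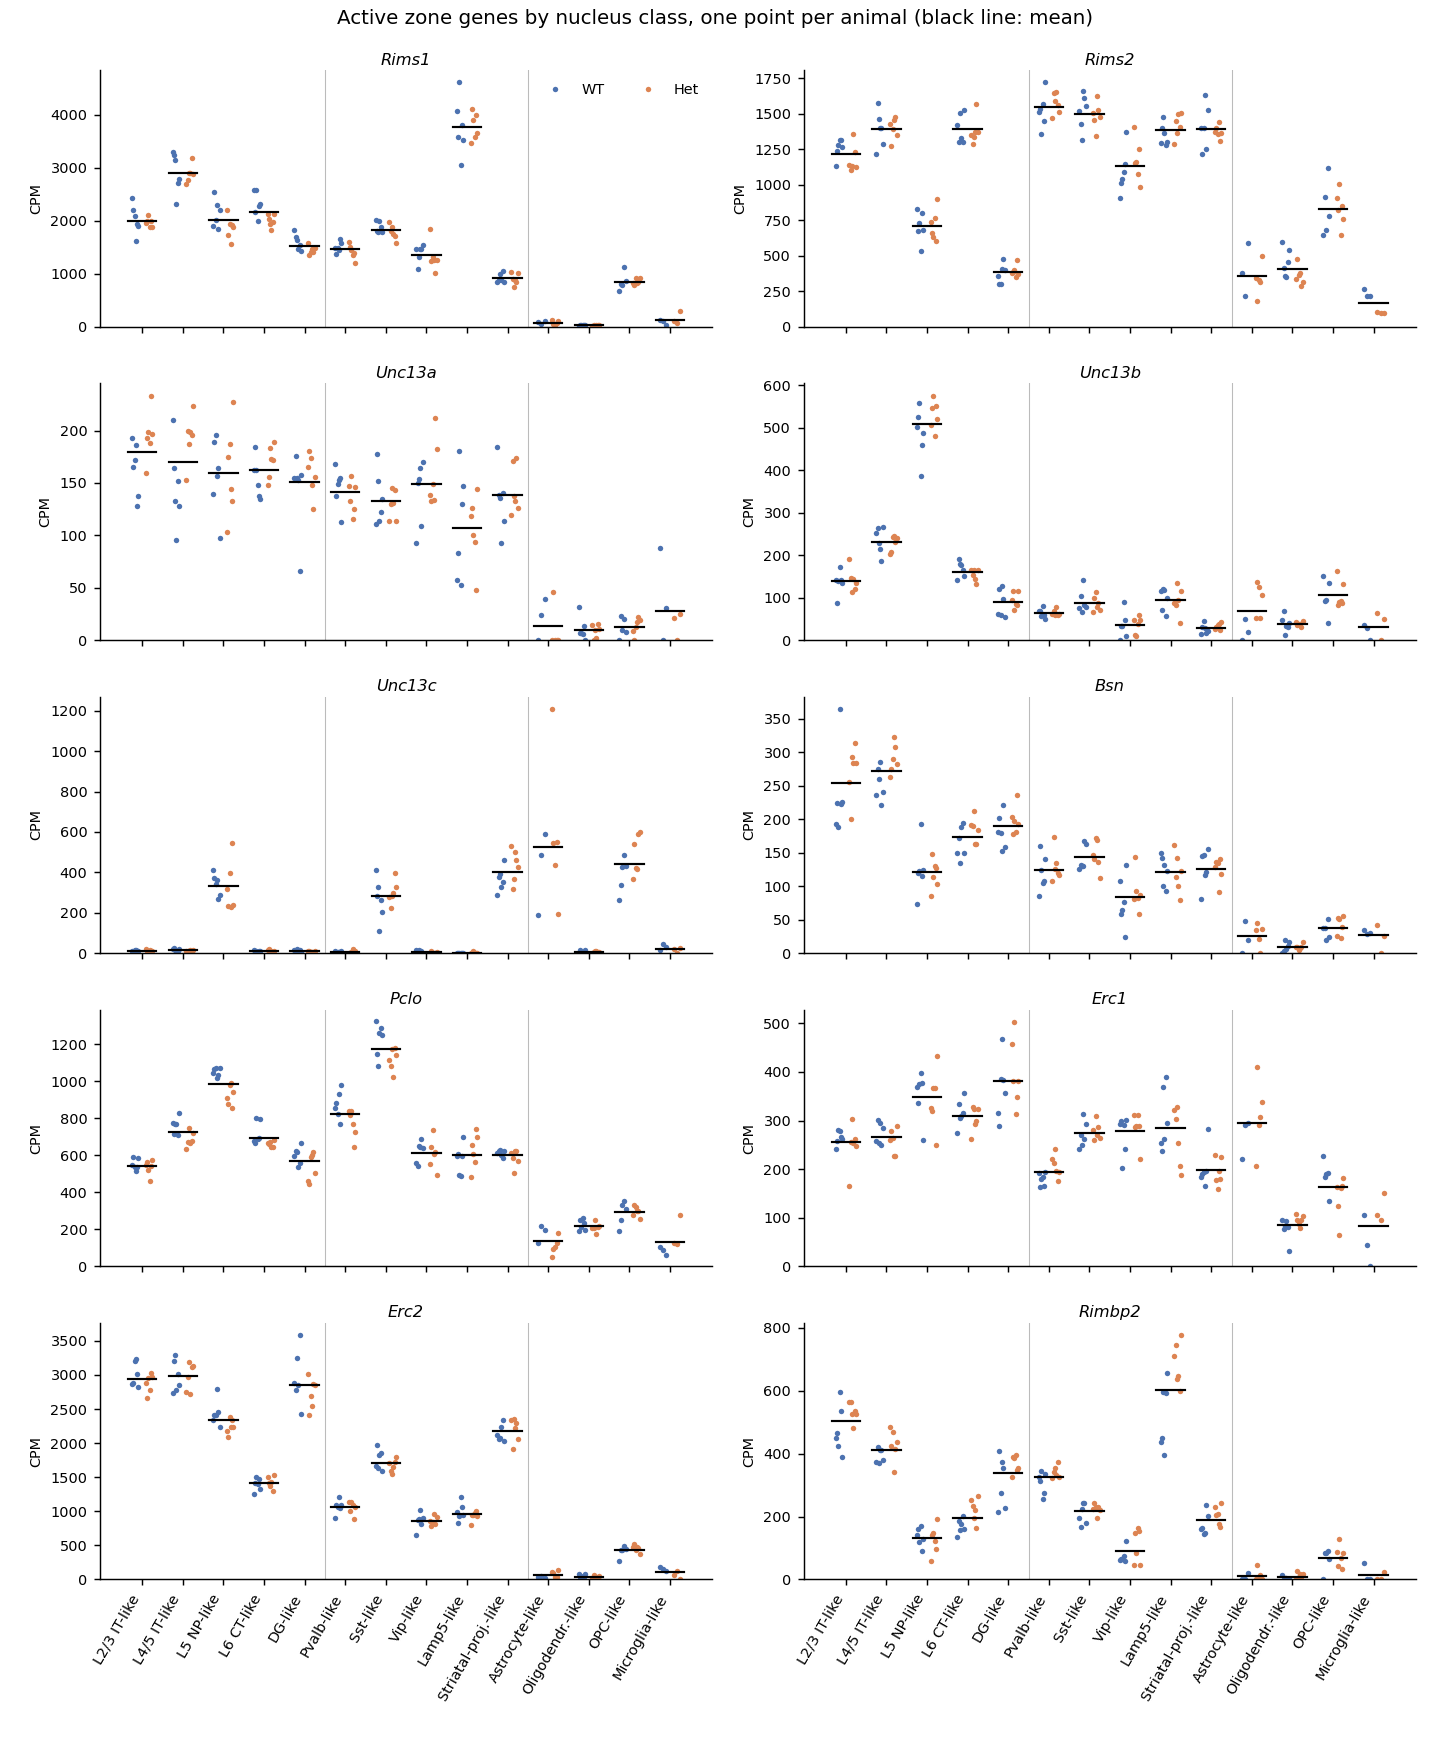
Levels of the 10 genes by class, one panel per gene, with each point an animal and the black mark the mean (vertical axis, CPM on a scale of its own for each gene). Rims1 and Rimbp2 are highest in Lamp5-like nuclei, Unc13b in L5 NP-like nuclei, Pclo in Sst-like nuclei, and Unc13c is near 0 in 7 of the 10 neuronal classes.

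Rims1 (ENSMUSG00000041670.16, minus strand, mm10 chr1:22286251-22805994), which encodes RIM1, was highest in Lamp5-like nuclei, a class of interneurons that includes neurogliaform cells. There the 12 animals ranged from 3050 to 4608 CPM with a median of 3725, and the mean was 2.06 times that of Sst-like nuclei, the next inhibitory class. L4/5 IT-like nuclei followed with 2325 to 3290 CPM (median 2893), and Striatal-projection-like nuclei had the lowest neuronal level with 756 to 1055 (median 886). Every animal's Lamp5-like and L4/5 IT-like value lay above all 12 values of the Striatal-projection-like class. Against the mean of the other inhibitory classes, Rims1 was higher in Lamp5-like nuclei by 1.42 on the log2 scale (SE, the standard error, 0.05, edgeR quasi-likelihood test, adjusted p = 1.23e-73). In the order of classes, the steps from Lamp5-like to L4/5 IT-like (mean difference 872 CPM, SD 304 over 12 animals) and from there to L6 CT-like nuclei (743, SD 284) were beyond the spread between animals, while L6 CT-like, L5 NP-like, L2/3 IT-like and Sst-like nuclei followed each other with no step beyond it.

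Rims2 (ENSMUSG00000037386.16, plus strand, chr15:39198261-39684372), which encodes RIM2, was between 1387 ± 83.2 and 1550 ± 99.2 CPM (SD, n = 12) in Pvalb-like, Sst-like, L4/5 IT-like, L6 CT-like, Striatal-projection-like and Lamp5-like nuclei, and each step between neighbours in this order was within the spread. Pvalb-like nuclei were above the other inhibitory classes by a log2 fold change of 0.18 (SE 0.05, adjusted p = 0.00302), under the call limit of 1. DG-like nuclei, named for the granule cells of the dentate gyrus, stood apart with 299.98 to 479 CPM (median 384), below every value of the other neuronal classes. Against the other excitatory classes this was lower by a log2 fold change of -1.65 (SE 0.07, adjusted p = 1.32e-64). L5 NP-like nuclei came next with 714 ± 102 CPM, but a log2 fold change there did not pass the call limit.

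Unc13a (ENSMUSG00000034799.16, minus strand, chr8:71624417-71671757) encodes Munc13-1, the main priming protein of forebrain synapses, and varied least between neuronal classes. Its mean was highest in L2/3 IT-like nuclei (128 to 233 CPM, median 187) and lowest in Lamp5-like nuclei (47.4 to 181, median 109), a ratio of 1.68. Within the 10 neuronal classes no step between neighbours was beyond the spread, and no class was called. In the 4 non-neuronal classes the mean was 9.76 to 27.5 CPM. Colgalt1 overlaps Unc13a on the other strand, at a mean of 45.1 CPM over all nuclei kept, and if strand was not used in counting the reads of the pair cannot be told apart.

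Unc13b (ENSMUSG00000028456.18, plus strand, chr4:43058953-43264871), which encodes Munc13-2, was high in L5 NP-like nuclei, the near-projecting cells of layer 5. They had 386 to 575 CPM (median 514), all 12 above the highest L4/5 IT-like value of 266, and the step to that class was 276 CPM (SD 51.3). The log2 fold change against the other excitatory classes was 1.71 (SE 0.07, adjusted p = 1.25e-66). DG-like nuclei were lower than the other excitatory classes, with 54.9 to 127 CPM (median 89.6) and a log2 fold change of -1.37 (SE 0.09, adjusted p = 1.3e-33). Striatal-projection-like nuclei had the lowest mean of the neuronal classes with 29.3 ± 9.45 CPM. Over the class means, excitatory classes exceeded inhibitory classes by 1.81 on the log2 scale (SE 0.06, adjusted p = 1.76e-81). Unc13b was the only one of the 10 called in that contrast, in which 14.5% of genes were called. Erc2 came close to the limit of 1 there, at 0.994 (SE 0.03, adjusted p = 1.31e-88), and Rims2 was furthest in the other direction, at -0.53 (SE 0.03, adjusted p = 2.64e-39).

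Unc13c (ENSMUSG00000062151.13, minus strand, chr9:73479422-73968966) encodes Munc13-3, best known from the cerebellum. It was present in Striatal-projection-like (287 to 531 CPM, median 385, 2062 UMIs in all), L5 NP-like (228 to 544, median 331, 642 UMIs) and Sst-like nuclei (108 to 414, median 284, 1134 UMIs). In the other 7 neuronal classes its mean was 14.4 CPM or less, and Lamp5-like nuclei held 1 UMI among 412 nuclei. The lowest animal of each of the first 3 classes was above the highest animal of each of those 7. Against the other excitatory classes the log2 fold change was 4.66 in L5 NP-like nuclei (SE 0.15, adjusted p = 2.35e-61), while L2/3 IT-like (-1.19), L6 CT-like (-1.14) and DG-like (-1.59) nuclei, whose comparison group includes the L5 NP-like class, were called lower. The contrasts of Striatal-projection-like (adjusted p = 5.67e-65), Sst-like (1.45e-48) and Lamp5-like nuclei (6.38e-09) were called as well. No fold change is given for these, since its size depends on the single UMI of Lamp5-like nuclei. OPC-like nuclei had 266 to 599 CPM (median 428, n = 11) and Astrocyte-like nuclei 189 to 1210 (median 515, n = 8, 213 UMIs), with means of 444 ± 104 and 526 ± 317 CPM that lay above every neuronal mean, though the ranges overlapped with that of Striatal-projection-like nuclei. The OPC-like class joined a cluster of 464 nuclei with a mean of 557 CPM (n = 10) and one of 115 nuclei, led by Neu4 and Gpr17, with 62.1 (n = 5). Of the Sst-like clusters, those of 628 and 236 nuclei had means of 365 (n = 12) and 362 CPM (n = 11), and one of 210 nuclei had 75.2 (n = 10).

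Bsn (ENSMUSG00000032589.14, minus strand, chr9:108096022-108190384), which encodes Bassoon, had its highest levels in L4/5 IT-like (221 to 322 CPM, median 275) and L2/3 IT-like nuclei (188 to 365, median 240) and its lowest neuronal level in Vip-like nuclei (24.1 to 144, median 81.2). The L4/5 IT-like values were all above the Vip-like values. The step from L2/3 IT-like to DG-like nuclei (190 ± 24.0 CPM) was beyond the spread by a small margin (63.6 CPM, SD 59.3). Pclo (ENSMUSG00000061601.15, plus strand, chr5:14514918-14863459), which encodes Piccolo, led in another set of classes. Sst-like nuclei had 1022 to 1322 CPM (median 1158), L5 NP-like nuclei 857 to 1073 (median 1001) and Pvalb-like nuclei 647 to 980 (median 830), and each step down this order, including that to L4/5 IT-like nuclei, was beyond the spread. L2/3 IT-like nuclei had the lowest neuronal mean of Pclo (458 to 592 CPM, median 544). Neither gene passed the call limit in any neuronal class. There are 8 predicted genes on the same strand within Pclo, the highest at a mean of 22.6 CPM over all nuclei kept, and the counting could split reads between these and Pclo.

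Erc2 (ENSMUSG00000040640.11, plus strand, chr14:27622428-28478537), the ELKS gene expressed mainly in brain, was at 2978 ± 206 CPM (SD, n = 12) in L4/5 IT-like, 2942 ± 167 in L2/3 IT-like and 2846 ± 332 DG-like nuclei, with each step in this order within the spread. Vip-like nuclei had the lowest neuronal level, 648 to 1013 CPM with a median of 864, below every animal of those 3 classes. L6 CT-like nuclei were the lowest excitatory class with 1410 ± 85.7 CPM. Their log2 fold change against the other excitatory classes was -0.96 (SE 0.05, adjusted p = 5.18e-45), which did not pass the call limit of 1. Among inhibitory classes, Striatal-projection-like nuclei had 1920 to 2352 CPM (median 2166) and did not overlap with Pvalb-like (886 to 1203), Lamp5-like (806 to 1209) or Vip-like nuclei. Against the other inhibitory classes their log2 fold change was 1.09 (SE 0.05, adjusted p = 2.24e-57). Erc1 (ENSMUSG00000030172.15, minus strand, chr6:119570796-119848167), the ELKS gene found in many tissues, varied less, from 194 ± 23.0 CPM in Pvalb-like to 382 ± 65.3 in DG-like nuclei. It was not called in any neuronal class, and 11 of its 13 steps between neighbouring classes were within the spread.

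Rimbp2 (ENSMUSG00000029420.14, minus strand, chr5:128757791-128953486), which encodes RIM-binding protein 2, differed 6.61-fold between the highest and lowest neuronal class. Lamp5-like nuclei had 394 to 777 CPM (median 619), L2/3 IT-like nuclei 388 to 598 (median 526), L5 NP-like nuclei 60.1 to 191 (median 135) and Vip-like nuclei 46.1 to 163 (median 71.3). The values of the first pair of classes did not overlap with those of the second. Rimbp2 was called higher in Lamp5-like (log2 fold change 1.64, SE 0.08, adjusted p = 1.88e-43) and L2/3 IT-like nuclei (1.12, SE 0.06, adjusted p = 1.47e-42). It was called lower in Vip-like (-1.64, SE 0.14, adjusted p = 3.08e-23) and L5 NP-like nuclei (-1.49, SE 0.10, adjusted p = 1.41e-30). With the upper limits on UMIs and genes per nucleus left out, the fold changes in L2/3 IT-like and L5 NP-like nuclei were 0.85 and -0.87 and no longer passed the limit of 1.

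Within families, the share of each member per length of gene set classes apart. Rims1 made up 78.7% ± 3.35 (SD, n = 12) of the RIM level in DG-like nuclei, 72.2% ± 4.57 in L5 NP-like and 71.7% ± 2.18 in Lamp5-like nuclei, but 46.8% ± 2.79 in Pvalb-like and 38.0% ± 3.32 in Striatal-projection-like nuclei. Unc13a made up 73.3% to 94.7% of the Munc13 level in 9 neuronal classes and 51.1% ± 6.54 in L5 NP-like nuclei, where Unc13b took 38.3% ± 4.87 and Unc13c 10.6%. Unc13c reached its largest neuronal share, 21.4% ± 4.82, in Striatal-projection-like nuclei, where Unc13b took 3.74%. Erc1 was 21.1% of the ELKS level in L2/3 IT-like and 49.97% in Vip-like nuclei, the lowest and highest of the neuronal classes. Bsn made up 62.7% ± 5.65 of the sum of Bsn and Pclo in L2/3 IT-like nuclei and 31.0% in L5 NP-like nuclei. These shares are a description, and no test was run on them. They rest on the scaling by length. Without it, in CPM, Unc13b was above Unc13a in L5 NP-like nuclei (508 against 159). Unc13c was above Unc13a in Striatal-projection-like nuclei (400 against 139). The limit given above for Unc13a and Colgalt1 also holds for the share of Unc13a.

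**Figure D2:**
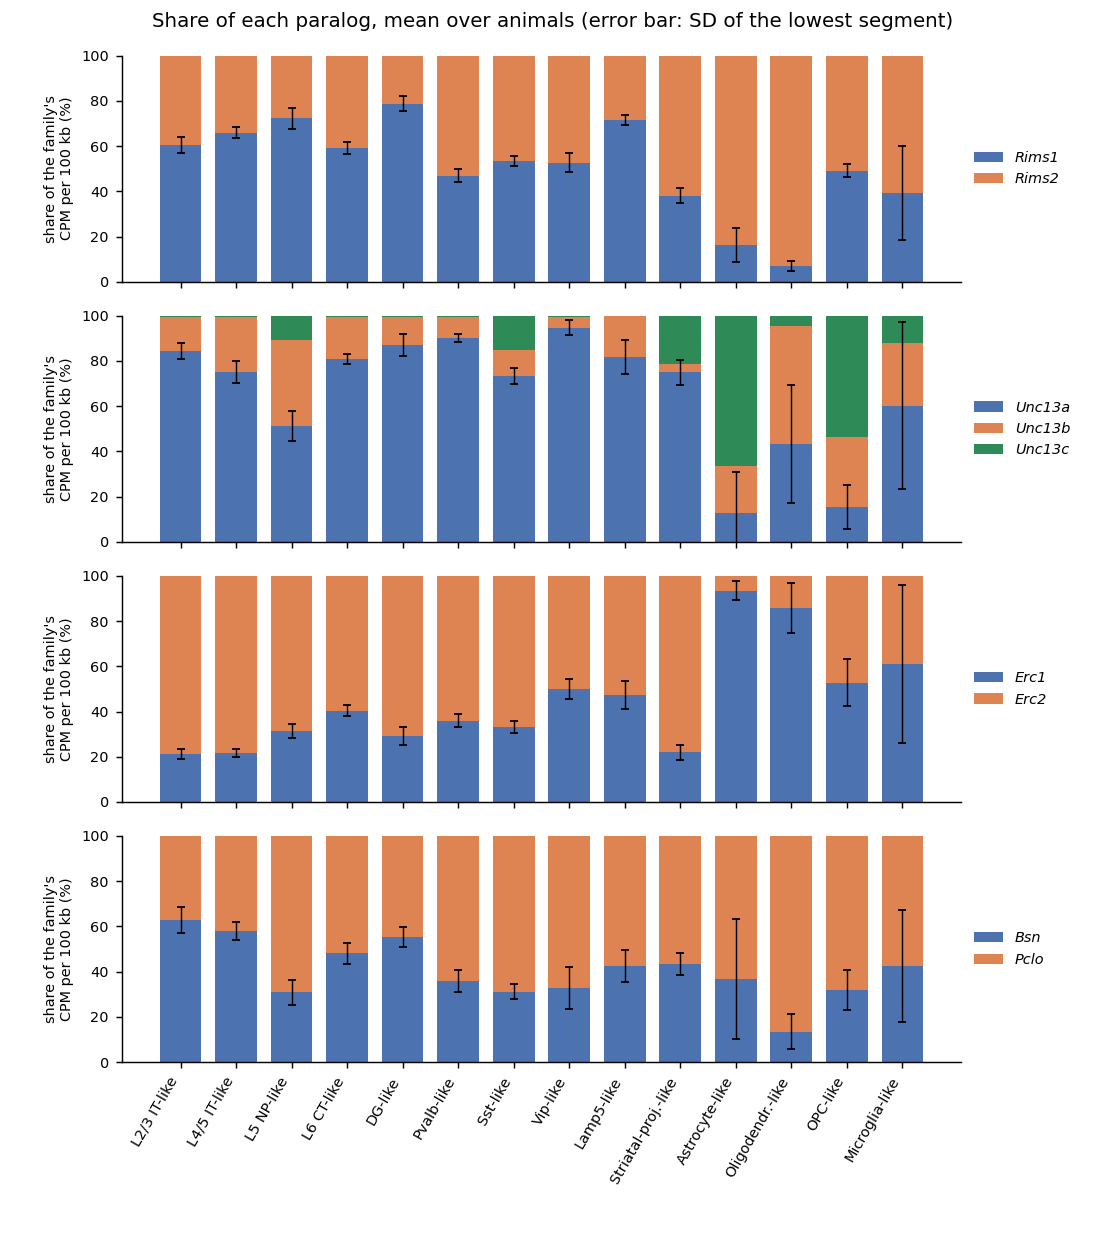
Share of each family member in the family's level per length of gene, in percent (vertical axis), by class, with bars the mean over animals and the error bar the SD of the first member's share. Among neuronal classes the RIM panel runs from 78.7% Rims1 in DG-like nuclei to 38.0% in Striatal-projection-like nuclei, and L5 NP-like nuclei have the largest Unc13b share.

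Between classes, 150 tests were made for the 10 genes and 52 were called at an adjusted p below 0.05 with a log2 fold change beyond 1 in either direction, 11 higher and 41 lower, where 21.5% of all tests over 7679 genes were called. In the 10 contrasts of neuronal classes 16 tests on the members were called, 8 higher and 8 lower, beside 7.31% and 6.66% of all genes' tests, so their share is near the background. L4/5 IT-like and Pvalb-like nuclei had no call among the 10 genes, with 9.42% and 13.8% of genes called there. In the classes with calls the share of all genes was 11.6% in L2/3 IT-like, 16.7% in L5 NP-like, 10.6% in L6 CT-like, 20% in DG-like, 9.62% in Sst-like, 13.0% in Vip-like, 12.9% in Lamp5-like and 22.0% in Striatal-projection-like nuclei. Unc13c was called in 7 of these contrasts, Rimbp2 in 4 and Unc13b in 2. The count for Unc13c is not a rank of its own. The size of its fold changes in Striatal-projection-like, Sst-like and Lamp5-like nuclei depends on the single UMI of Lamp5-like nuclei. Its means in the first pair, 400 and 284 CPM, were also above those in Pvalb-like (7.74) and Vip-like nuclei (5.92). Those in L2/3 IT-like, L6 CT-like and DG-like nuclei have the L5 NP-like class in their comparison group. The classes were formed from other genes of the same nuclei, so these p-values only set a difference between classes against how far animals vary around it.

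Partner genes of the active zone were taken from 4 lists: SNAREs and their regulators, vesicle proteins, presynaptic calcium channel subunits, and small RIMs, other RIM-binding proteins, liprins and adaptors. Unlike the 10 genes, the partners were not kept out of the clustering, so they may have helped to form the classes compared here. Their p-values and counts of calls between classes are therefore a description and no independent support for a difference. In Striatal-projection-like nuclei, 5 of the 8 calcium channel genes tested were called higher and none lower, with a median log2 fold change of 1.75 over the 8 (0.05 over all genes tested, of which 12.7% were called higher). They were led by the auxiliary subunits Cacna2d3 (2.65, SE 0.06, adjusted p = 2.86e-122) and Cacnb2 (2.34, SE 0.06, adjusted p = 6.24e-112) and the R-type channel Cacna1e (2.44, SE 0.06, adjusted p = 1.35e-110). Lamp5-like nuclei, which had the most Rims1, were higher in the vesicle protein Sv2c by 4.31 (SE 0.17, adjusted p = 5.62e-55) and in Cacna2d1 by 4.09 (SE 0.07, adjusted p = 2.74e-147), while Cacna2d2, another auxiliary subunit, had a log2 fold change of -4.08 (SE 0.45, adjusted p = 4.88e-16). In DG-like nuclei, the neuronal class lowest in Rims2, the vesicle protein Synpr was higher by 6.49 (SE 0.11, adjusted p = 1.95e-95) and Sv2b was lower, with a log2 fold change of -4.09 (SE 0.11, adjusted p = 1.63e-96). L5 NP-like nuclei, highest in Unc13b, had a log2 fold change of -4.17 in Cacna2d3 (SE 0.16, adjusted p = 2.31e-73), while Cacnb4 was higher by 1.07 (adjusted p = 1.08e-48), the vesicle protein gene Rab3c by 1.45 (adjusted p = 1.33e-32) and Rab27b by 1.34 (adjusted p = 8.22e-22). Over the 10 contrasts of neuronal classes, 17 tests of the calcium channel list were called higher and 16 lower of 80, 21 and 21 of 130 for vesicle proteins, 19 and 20 of 180 for liprins and the other adaptors, and 8 and 8 of 140 for SNAREs and their regulators. Over all genes, 7.31% of the tests in these contrasts were called higher and 6.66% lower, so the SNARE list lay below these shares and the other lists above them.

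Genes with the most similar profile were looked for among 13351 genes that reached 10 CPM in a class, by Pearson's r of mean log2 CPM. Over all 14 classes, the closest gene was Ica1 for Rims1 (r = 0.98), Rnf165 for Bsn (0.98), Cfap300 for Erc2 (0.98), Irak1bp1 for Rimbp2 (0.98), Klhl22 for Erc1 (0.95), Rnft2 for Rims2 (0.94), Gm48181 for Unc13b (0.89) and Smarcc1 for Unc13c (0.88). For Pclo it was Gm42444 (0.99), one of the predicted genes that lie within Pclo. For Bsn, Erc2 came second (0.97). Over the 10 neuronal classes alone, the closest genes were Rps6kb2 for Rims2 (0.97), Nuak1 for Unc13b (0.97), Oas1g for Pclo (0.97), Ttc12 for Unc13c (0.96), Bicdl1 for Unc13a (0.95), Camta2 for Bsn (0.94), Soga3 for Erc2 (0.93), Zfp9 for Rims1 (0.92), Gm43462 for Rimbp2 (0.92) and Faim2 for Erc1 (0.91). None of these 10 was the closest gene over 14 classes. Among the members themselves over these 10 classes, the pairs with the highest r were Bsn and Erc2 (0.77), Bsn and Rimbp2 (0.65) and Rims1 and Unc13b (0.61), and the lowest was Rims2 and Erc1 (-0.73). The class means share animals, libraries and depth, and these values are a description over 14 or 10 points. Each closest gene is the highest of a search over 13351 genes. How high an r such a search gives by chance was not tested.

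In non-neuronal classes the members were set beside 8 transcripts picked as neuronal, each as a percent of its mean over the 10 neuronal classes. Whether glia lack these transcripts was not tested. The 8 transcripts were at 1.9% to 17.0% in Astrocyte-like, 3.3% to 27.5% in OPC-like, 1.1% to 9.7% in Oligodendrocyte-like and 4.5% to 16.0% in Microglia-like nuclei. In OPC-like nuclei they did not share a common level, with Nrg3 at 27.5%, Rbfox1 at 23.2%, Snap25 at 22.9% and Rbfox3 at 3.3%. The 17.0% in Astrocyte-like nuclei was that of Slc17a7, at 10.9 ± 12.5 CPM (SD, n = 8). In Astrocyte-like nuclei Unc13c (487%), Erc1 (106%), Unc13b (46.8%), Rims2 (29.7%) and Pclo (18.7%) were above all 8. In OPC-like nuclei, the precursors of oligodendrocytes, Unc13c (411%), Unc13b (73.3%), Rims2 (68.9%), Erc1 (58.3%), Rims1 (42.8%) and Pclo (40.0%) were above all 8. Bsn (23.5%), Rimbp2 (23.1%), Erc2 (22.6%) and Unc13a (8.54%) were not. Rims1 in this class was 683 to 1120 CPM (median 833, n = 11), with no overlap with Oligodendrocyte-like nuclei at 15.8 to 43.3 (median 31.5). In Oligodendrocyte-like nuclei Rims2 (33.8%), Erc1 (30.8%), Pclo (29.8%) and Unc13b (26.7%) exceeded the 8 transcripts, and in Microglia-like nuclei Erc1 (29.9%), Unc13c (21.4%), Unc13b (20.6%), Unc13a (18.5%), Pclo (17.7%) and Bsn (16.8%) did so on 36 UMIs or fewer each. Against the mean of all neuronal classes, Unc13c was called higher in Astrocyte-like (adjusted p = 1.27e-36) and OPC-like nuclei (adjusted p = 1.86e-57), and no other member was called higher in a non-neuronal class. Called lower were 8 members in Astrocyte-like, 10 in Oligodendrocyte-like, 6 in OPC-like and 9 in Microglia-like nuclei, where 40.8%, 49.1%, 33.5% and 44.7% of genes were called in either direction. Summed over the 4 classes, 33 of the members' 40 tests were called lower, beside 22.3% of all genes' tests. Microglia-like nuclei also carried oligodendrocyte markers at a summed 3673 to 9073 CPM, against a mean of 73.1 in excitatory nuclei. These markers reached 3145 CPM in Astrocyte-like and 2504 in OPC-like nuclei, while the summed excitatory markers were at 10.4 to 159 CPM over the 4 classes against 1362 in excitatory nuclei. The summed inhibitory markers reached 53.5 CPM in Astrocyte-like, 31.6 in Oligodendrocyte-like, 152 in OPC-like and 184 in Microglia-like nuclei, against 1234 in inhibitory nuclei. The part of RNA from other cells in these levels was not tested.

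**Figure D3:**
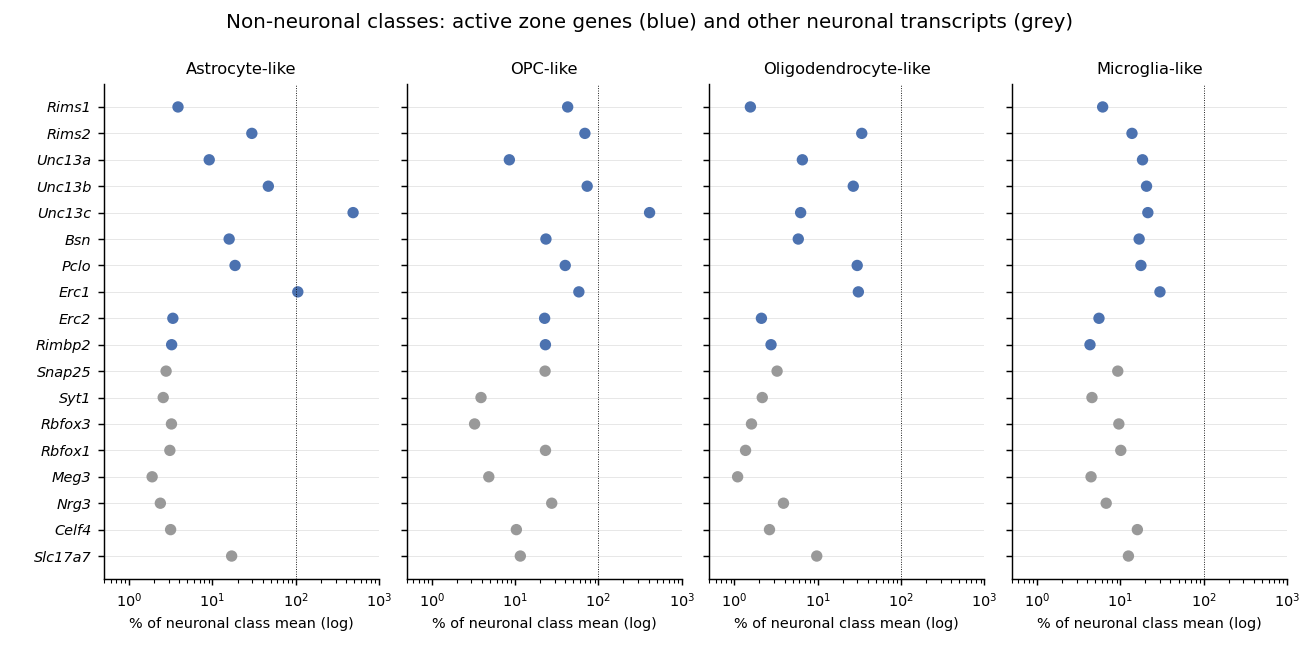
Levels in the 4 non-neuronal classes as a percent of the mean of the 10 neuronal classes (horizontal log axis), with members in blue and the 8 neuronal transcripts in grey. Unc13c lies above 100% in Astrocyte-like and OPC-like nuclei, and Rims1 lies above the grey points only in OPC-like nuclei.

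The comparison of Het with WT asked whether the loss of one intact Myt1l allele went with other levels of these genes. None of the 20 tests in all excitatory and all inhibitory nuclei and none of the 107 tests in classes was called by edgeR at an adjusted p below 0.05 with a log2 fold change beyond 0.2 in either direction. Of all genes' tests, 0.275% were called in the broad groups (0.201% in excitatory, 0.368% in inhibitory nuclei) and 0.194% in the classes (0.747% in L6 CT-like nuclei). At an unadjusted p under 0.05 there were 5 of 20 (7.54% of all genes' tests) and 14 of 107 (7.2%), 13 of the latter among the 92 tests in neuronal classes, where 7.71% of all genes' tests were under it. Of these 13, 11 were among the 48 tests in excitatory classes (9.17% of all genes' tests) and 2 among the 44 in inhibitory classes (5.55%). DESeq2 called 0 of the 20 and 1 of the class tests, Rims1 in L6 CT-like nuclei. It also called more of all genes than edgeR in excitatory nuclei, and its share of all genes in L6 CT-like nuclei is not given here. The low-count filter left out 4 members in Vip-like (Unc13b, Unc13c, Bsn and Rimbp2), 7 in Astrocyte-like, 5 in Oligodendrocyte-like, 3 in OPC-like and all 10 in Microglia-like nuclei, and Unc13c in L2/3 IT-like, DG-like, Pvalb-like and Lamp5-like nuclei. The median log2 fold change of the 10 genes was -0.04 in excitatory nuclei and 0.02 in inhibitory nuclei, where that of all genes tested was -0.01 in both.

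**Figure D4:**
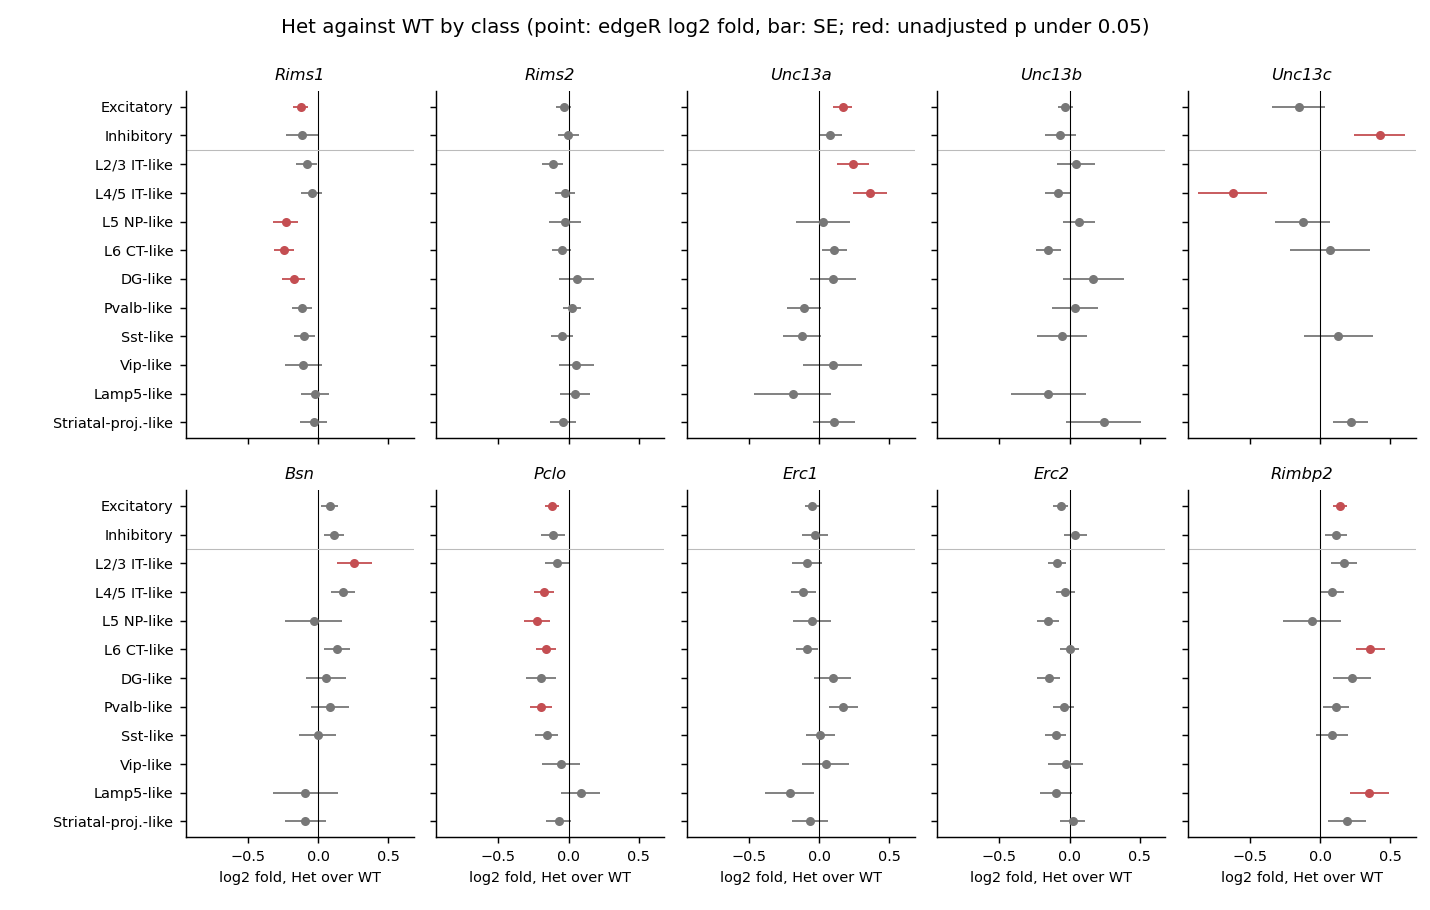
Log2 fold change of Het over WT for each gene (panels) in the 2 broad groups and 10 neuronal classes, with bars of 1 standard error and points at an unadjusted p under 0.05 in red. Rims1 lies to the left of 0 in all 10 neuronal classes and Rimbp2 to the right in 8 of 9, and no point passes the adjusted threshold.

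Rims1 had a lower fitted level in Het in all 10 neuronal classes, as did 3.38% of the genes tested in all 10, with log2 fold changes from -0.24 to -0.02 and a median of -0.10. In L6 CT-like nuclei, corticothalamic cells, WT animals had 2003 to 2579 CPM (median 2293) and Het animals 1831 to 2136 (median 2003). The groups overlapped, but no Het animal was above the WT median. The log2 fold change was -0.24 (SE 0.07, edgeR, adjusted p = 0.0843), and DESeq2 gave an adjusted p of 0.0227. In L5 NP-like nuclei WT had 1852 to 2549 CPM (median 2114) and Het 1564 to 2206 (median 1897), with a log2 fold change of -0.23 (SE 0.09, adjusted p = 0.378), and 1 of 6 Het animals was above the WT median. In DG-like nuclei WT had 1427 to 1835 CPM (median 1596) and Het 1347 to 1575 (median 1439.8), with a log2 fold change of -0.17 (SE 0.08, adjusted p = 0.631). The ranges overlapped in both classes, with no Het animal above the WT median in DG-like nuclei. The value over all excitatory nuclei was -0.12 (SE 0.05, adjusted p = 0.543), from 1829 to 2183 CPM (median 2034) in WT and 1733 to 1986 (median 1909) in Het animals. There too the ranges overlapped and all 6 Het animals lay below the WT median. Rims2, the other RIM gene, had log2 fold changes between -0.11 and 0.06 in the 10 neuronal classes. In Oligodendrocyte-like nuclei it had 352 to 601 CPM (median 436) in WT and 287 to 481 (median 351) in Het animals, with a log2 fold change of -0.30 (SE 0.13, adjusted p = 0.99), and the ranges overlapped.

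Among the Munc13 genes, Unc13a had a higher fitted level in Het in 7 of 10 neuronal classes, with a median log2 fold change of 0.10. Of the genes tested in all 10, 11.1% were higher in 8 or more, so a count of 7 or more is at least as frequent. In L4/5 IT-like nuclei WT animals had 95.2 to 210 CPM (median 142) and Het animals 153 to 224 (median 197), and all 6 Het animals were above the WT median although the ranges overlapped. The log2 fold change was 0.36 (SE 0.12, adjusted p = 0.328), against 0.24 (SE 0.11, adjusted p = 0.481) in L2/3 IT-like nuclei, where WT had 128 to 193 CPM (median 169) and Het 160 to 233 (median 195). Over all excitatory nuclei it was 0.17 (SE 0.07, adjusted p = 0.487), with 121 to 160 CPM (median 141) in WT and 149 to 174 (median 160) in Het animals. In L2/3 IT-like nuclei 5 and in all excitatory nuclei 6 of 6 Het animals were above the WT median, with overlap of the ranges in both. Unc13b was between -0.15 and 0.24 in the 9 neuronal classes tested. Unc13c was -0.62 in L4/5 IT-like nuclei (SE 0.24, adjusted p = 0.438), where both genotypes were low, at 11.9 to 24.1 CPM (median 17.1) in WT and 8.1 to 16.1 (median 11.1) in Het animals. In all inhibitory nuclei Unc13c was 0.42 (SE 0.18, adjusted p = 0.715), with 93.5 to 142 CPM (median 108) in WT and 87.4 to 197 (median 161) in Het animals. The ranges overlapped in both cases. The share of Striatal-projection-like nuclei, which carry Unc13c, among inhibitory nuclei was 15.5% ± 5.2 (SD, n = 6) in WT and 24.2% ± 5.1 in Het animals, and its part in this value was not tested. Within Striatal-projection-like nuclei the fold change of Unc13c was 0.22 on the log2 scale (SE 0.13, adjusted p = 0.931). This class joined 5 clusters, and the one holding most of it was led by Gm10754 and Ebf1 in WT (34.4% of the class) and by Drd2 and Rarb in Het animals (34.1%), with Unc13c at 299 and 386 CPM (means over 12 animals). The part of this mixture in the fold change was not tested.

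Pclo had a lower fitted level in Het in 9 of 10 neuronal classes, as did 9.92% of the genes tested in all 10 in 9 or more, with a median log2 fold change of -0.16. In L5 NP-like nuclei WT animals had 1014 to 1073 CPM (median 1055) and Het animals 857 to 987 (median 924). These ranges did not overlap, which held for 0.543% of the genes tested in that class, and the log2 fold change was -0.22 (SE 0.09, adjusted p = 0.419). In Pvalb-like nuclei WT had 769 to 980 CPM (median 868) and Het 647 to 838 (median 795), with a log2 fold change of -0.20 (SE 0.08, adjusted p = 0.695). In L4/5 IT-like nuclei WT had 707 to 826 CPM (median 766) and Het 634 to 746 (median 674), and in L6 CT-like nuclei 667 to 799.96 (median 691) and 645 to 680.3 (median 663). The log2 fold changes were -0.18 (SE 0.07, adjusted p = 0.470) and -0.16 (SE 0.07, adjusted p = 0.392). In each of these 4 classes no Het animal was above the WT median, and the ranges overlapped in all but the L5 NP-like class. Over all excitatory nuclei Pclo was at 690 to 771 CPM (median 708) in WT and 655 to 697 (median 666) in Het animals, and its log2 value was -0.12 (SE 0.05, adjusted p = 0.466), with overlap and no Het animal above the WT median. For Bsn the log2 fold changes were between -0.09 and 0.26 in the 9 neuronal classes tested, the highest in L2/3 IT-like nuclei (SE 0.12, adjusted p = 0.50), where WT had 188 to 365 CPM (median 223) and Het 200.1 to 314 (median 284) and 5 of 6 Het animals were above the WT median.

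Erc2 had a lower fitted level in Het in 9 of 10 neuronal classes, as did 9.92% of the genes tested in all 10 in 9 or more. Its log2 fold changes were between -0.15 and 0.02, and none had an unadjusted p under 0.05. Erc1 was between -0.21 and 0.17. Rimbp2 had a higher fitted level in Het in 8 of the 9 neuronal classes tested, as did 6.06% of the genes tested in these 9, with a median log2 fold change of 0.17. In L6 CT-like nuclei WT animals had 134 to 203 CPM (median 169) and Het animals 164 to 265 (median 227), and 5 of 6 Het animals were above the WT median. The log2 fold change was 0.36 (SE 0.10, adjusted p = 0.104). In Lamp5-like nuclei, where Rimbp2 is highest, WT had 394 to 657 CPM (median 522) and Het 601 to 777 (median 678), a log2 fold change of 0.35 (SE 0.14, adjusted p = 0.768). The ranges overlapped, with all 6 Het animals above the WT median. Over all excitatory nuclei it was 0.14 (SE 0.05, adjusted p = 0.326), with 316 to 366 CPM (median 340) in WT and 356 to 395 (median 388) in Het animals, and all 6 Het animals were above the WT median. The classes come from the same 12 animals, so counts of classes with one direction are not independent observations.

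**Figure D5:**
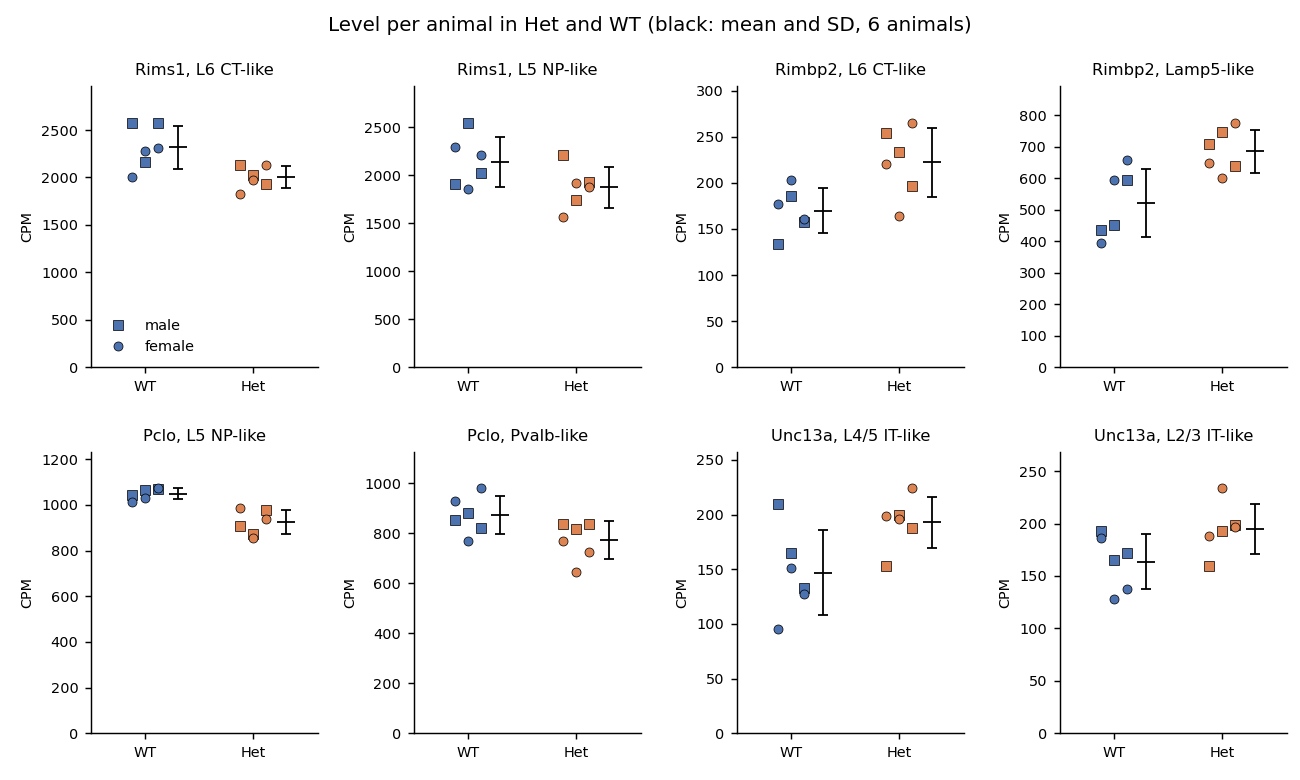
Levels per animal (CPM) in WT and Het for 8 pairs of gene and class with an unadjusted p under 0.05, squares for males and circles for females, with bars the mean and SD. The ranges of the genotypes overlap in 7 panels and do not overlap for Pclo in L5 NP-like nuclei.

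Of the partner lists, none of the 127 tests in the broad groups and none of the 447 in classes was called between genotypes by edgeR, beside 0.275% and 0.194% of all genes' tests. An unadjusted p under 0.05 was found in 18 and 44 of them, beside 7.54% and 7.2% of all genes' tests. The smallest adjusted p-values were those of Cacnb1, a calcium channel subunit, in L2/3 IT-like nuclei (log2 fold change 0.85, SE 0.21, adjusted p = 0.0520) and in all excitatory nuclei (0.33, SE 0.08, adjusted p = 0.108), and the gene is named for this reason, after its values were seen. Its adjusted p fell under 0.05 in 2 of the alternatives tried in L2/3 IT-like and 3 in all excitatory nuclei. A difference between sexes in the effect of genotype was tested as an interaction term for the 10 genes. None of 124 tests was called, beside 0.0106% of all genes' tests, and 10 had an unadjusted p under 0.05, beside 5.16% of all genes' tests. The smallest adjusted p was 0.376, for Unc13c in Sst-like nuclei. In that class the log2 ratio of the Het to the WT mean was -0.39 in males and 0.83 in females. For Rims1 it was -0.21 in males and 0.20 in females in L4/5 IT-like nuclei (interaction adjusted p = 0.488) and 0.06 and -0.25 in Pvalb-like nuclei (0.726). The lower pooled level of Rims1 in Het was thus not seen in each sex in every class. The ratio was also above 0 in males in Sst-like and Vip-like nuclei and in females in L2/3 IT-like and Lamp5-like nuclei. In males and females it was below 0 in L6 CT-like (-0.27 and -0.15), L5 NP-like (-0.14 and -0.25), DG-like (-0.26 and -0.02) and Striatal-projection-like nuclei (-0.01 and -0.02). Over all excitatory nuclei the ratio was -0.16 and -0.04. Of the 10, 3 were Unc13a in excitatory nuclei, where the ratio was 0.09 in males and 0.72 in females in L4/5 IT-like nuclei (interaction adjusted p = 0.738), -0.06 and 0.35 in L6 CT-like nuclei (0.938) and 0.05 and 0.34 over all excitatory nuclei (0.702). For Erc1 it was 0.44 and -0.21 in DG-like nuclei (0.985) and 0.22 and -0.24 over all inhibitory nuclei (1.00), for Bsn 0.38 and -0.06 in L6 CT-like nuclei (0.938), and for Rims2 0.28 and -0.33 in OPC-like nuclei (0.946).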

How the data were processed

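Nuclei were isolated from 12 cortices, 6 per genotype, then fixed and kept frozen until all samples were ready. The libraries were prepared in parallel on shared plates. Whether the isolations shared a batch is not stated. With ScaleRna 1.4 the authors aligned the reads to mm10, and they called nuclei with CellFinder from ScaleRna 1.5 and deposited expected counts of UMIs, in which a UMI that fits several genes is divided among them and no normalization was applied (92.5% to 92.9% of entries were exactly whole, with no tolerance). The submitters' processing notes name Seurat 4.3.0 and DESeq2 1.38.3. Whether strand was used in counting is not given in the sources used here.

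The filters of the study were applied (UMIs from 800 to 6000, genes from 300 to 3000, no more than 1% of UMIs mitochondrial, log genes divided by log UMIs 0.9 or more). The number of P21 nuclei that the methods state is larger than that of the 78743 barcodes and of the 34860 nuclei these limits left, so the nuclei here are a different set. The reporter transcript was kept out of the counts. No doublet caller was run. Instead 555 nuclei (1.59%) with markers of different broad groups were removed from every sum over a class or broad group, taken as 2 or more inhibitory marker UMIs in an excitatory nucleus, 3 or more excitatory marker UMIs in an inhibitory nucleus, 3 or more neuronal marker UMIs in a non-neuronal nucleus, or 5 or more oligodendrocyte or microglia marker UMIs in a neuron. Nuclei were clustered in 2 rounds with leidenalg 0.10.2 and scanpy 1.11.5 (3000 variable genes without the 10 genes and Myt1l, 50 principal components, 20 neighbours, resolution 1, then 1.5 for neurons). A cluster was named where the mean log2 ratio of a class's markers to the median cluster was at least 1.2 (3 for non-neuronal classes), with limits on markers of other classes. These limits, and genes whose presence among the leading genes barred a name, were chosen after the clusters were seen. A nucleus also needed 1 marker UMI of its class or broad group. The depth was 23429386 to 59958572 UMIs per animal, and a value that rests on few UMIs also carries their counting error.

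Counts were summed per animal and class (at least 10 nuclei), rounded, and tested with edgeR 4.0.16 in R 4.3.3 (TMM, filterByExpr, robust quasi-likelihood). Het was compared with WT on genotype alone, with at least 3 animals per genotype. Classes were compared in 1 fit over 157 sums with the animal as a block, each neuronal class against the mean of the other classes of its broad group and each non-neuronal class against the mean of all neuronal classes. P-values are two-sided and adjusted by Benjamini-Hochberg over all genes tested. Likeness used log2(CPM + 1). A step between neighbouring classes is called beyond the spread where the mean difference within animals exceeds its SD. Scripts were tested on simulated counts. Alternatives were DESeq2 1.42.0, its size factors, no low-count filter, no upper limits on nuclei, mixed nuclei kept, more marker UMIs per nucleus, sex as a term, a replicate block, offsets by gene length, WT animals only, and leaving out each animal.

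The 10 genes and the lists of partners were chosen with earlier results of these data known. The text names all 10 genes, the 19 of their Het against WT results with an unadjusted p under 0.05, partners called in a contrast of classes (at most 3 in each direction), and the genes closest in profile. The 15 Endothelial-like nuclei were too few to use. The gene with the profile most like Unc13a over all classes is not reported here.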

Additional observations from a re-analysis of the deposited data

Results flagged for a closer look

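Among 68 groups of animals, 2 held an animal far from the others by Dixon's criterion, which chance meets in about 1 group in 20. Pclo over all inhibitory nuclei was at 603 CPM in WT male 2, while the next lowest WT animal was at 773 and the highest at 857. Bsn in L2/3 IT-like nuclei was at 365 CPM in WT female 1, with the next highest WT animal at 226 and the lowest at 188.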

How the results depend on the processing

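The count of members called between genotypes in the broad groups was 0 in every alternative run, leaving out each animal included. In classes it was 1 with the DESeq2 test (Rims1 in L6 CT-like nuclei, adjusted p = 0.0227), 1 without the low-count filter (Rimbp2 in L6 CT-like nuclei, adjusted p = 0.00672) and 1 without upper limits on nuclei (Rimbp2 in L6 CT-like nuclei, adjusted p = 0.0307). Leaving out 1 animal at a time gave 0 to 1, with Rims1 in L6 CT-like nuclei called without WT female 1 (adjusted p = 0.0302), Rimbp2 there without Het female 2 (0.0281) and Unc13a in L4/5 IT-like nuclei without WT male 1 (0.0373). Over the alternatives the adjusted p ranged from 0.0227 to 0.287 for Rims1 in L6 CT-like nuclei, 0.00672 to 0.242 for Rimbp2 there and 0.0373 to 0.759 for Unc13a in L4/5 IT-like nuclei. The cause was not tested. The share of all genes called in these classes under these settings is not given here, so the single calls have no background beside them. Of the values of single members between genotypes, 393 kept their direction and side of the threshold and 6 passed it. The partner Cacnb1 passed it in L2/3 IT-like nuclei with mixed nuclei kept (adjusted p = 0.046) and without WT male 1 (0.0264), and in excitatory nuclei with DESeq2 (0.0442), without the filter (0.0412) and without WT female 2 (0.0478). Over all genes, the calls in excitatory nuclei were 28, against 83 with DESeq2, 174 without the filter, 61 without upper limits, 17 with sex as a term and 13 with the replicate block. In inhibitory nuclei they were 41, against 144 without the filter, 20 without upper limits, 18 with more marker UMIs and 23 with the block.

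Between classes the members called were 52, with 55 in WT animals only and 51 to 54 leaving out 1 animal. Of single values, 816 kept their call and 7 lost it, in Rimbp2 as given above, in Unc13b in Astrocyte-like nuclei (log2 fold change -0.59 with DESeq2 size factors, -0.93 without WT male 2 and -0.92 without WT female 1) and in Unc13c in Oligodendrocyte-like nuclei. The last could not be estimated in WT animals only or without Het male 3, since Lamp5-like nuclei then held no Unc13c UMI. No value was reversed. Without upper limits no Microglia-like class was named, so that alternative gives no value there, and it called 47 members over the other 14 contrasts, where 43 of the 52 lay. The deviations of same-numbered animals of one sex had an r of -0.21 to 0.16 in excitatory and -0.34 to 0.13 in inhibitory nuclei. Animals with other numbers had -0.25 to 0.19 and -0.24 to 0.31. With 3 animals per genotype and sex, these values cannot decide whether the numbers pair the animals. With a replicate block of sex and number 0 members were called.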

Other observations

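Clusters that met no naming criterion also held high levels of some of the 10 genes, in part above those of every named class. They are given by their leading genes, as values chosen after they were seen and with no test. An inhibitory cluster of 315 nuclei led by Pde11a and Kit, which encodes a receptor tyrosine kinase, had 6286 ± 502 CPM of Rims1 (SD, n = 12) and 791 ± 90.5 of Rimbp2, above the means of Lamp5-like nuclei. Another inhibitory cluster, of 150 nuclei led by Pde11a and Hcrtr2, had 3264 CPM of Rims1 (mean, n = 7), against 3776 in Lamp5-like nuclei. A cluster of 128 nuclei led by Reln and Zfp385b, grouped with the non-neuronal nuclei in the first round, had 5635 ± 716 CPM of Erc2 (n = 5) and 2012 of Rims2. Rims2 was higher still in an inhibitory cluster of 224 nuclei led by Foxp2 and Chst9, at 2191 ± 324 CPM (n = 10), against 1550 in Pvalb-like nuclei.

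Other unnamed clusters also had means above every named class. Bsn was at 289 ± 38.8 CPM (n = 12) in an excitatory cluster led by Cpne9 and Pdzrn3, against 272 in L4/5 IT-like nuclei, and Unc13a at 217 ± 31.4 (n = 11) in one led by Trp53inp1 and Gm8251, against 179 in L2/3 IT-like nuclei. Erc1 was at 454 ± 107 CPM (n = 7) in the cluster led by Pde11a and Hcrtr2, against 382 in DG-like nuclei. Pclo was at 1209 ± 186 CPM (n = 12) in an inhibitory cluster led by Frem1 and Cnr1, against 1171 in Sst-like nuclei.

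Unc13b was at 440 ± 99.7 CPM (n = 12) in an excitatory cluster of 286 nuclei led by Sntb1 and Grik1 and at a mean of 429 CPM (n = 7) in an inhibitory cluster of 225 nuclei led by Meis2 and Adamts19, against 508 ± 51.6 in L5 NP-like nuclei. Unc13c was itself among the leading genes of an excitatory cluster of 707 nuclei, at 389 ± 155 CPM (n = 12), and it was at a mean of 349 CPM (n = 10) in the inhibitory cluster of 224 nuclei led by Foxp2 and Chst9, against 400.1 in Striatal-projection-like nuclei. Within that class it was highest in a cluster of 147 nuclei also led by Foxp2, at 683 ± 280.3 CPM (n = 6), and at 386 ± 91.2 (n = 12) in a cluster of 508 nuclei led by Drd2, a dopamine receptor gene.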
